A study of Mus musculus with 6 samples.

Results

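Carbonic anhydrases are the enzymes that interconvert carbon dioxide and water with bicarbonate and a proton. The 8 genes described here are *Car2*, *Car3*, *Car5b*, *Car8*, *Car9*, *Car12*, *Car13* and *Car14*. They were chosen by name, with earlier results of these data known, and they are 8 of the 16 carbonic anhydrase genes among the 46078 genes of the count table. All 8 passed the filter on low counts. Because the choice used the comparison of knockout (KO) with wild type (WT), the values of the 8 genes in that comparison are a description and are given without p-values. Where a member is said to be past or short of the threshold used for all genes, that places it in the fit and is no test of it.

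RNA was sequenced from C2C12 cells, an immortalized mouse myoblast line that withdraws from the cell cycle and fuses into myotubes when serum is removed. Ribosomal RNA-depleted total RNA was sequenced from 3 KO and 3 WT libraries, which are called KO1, KO2 and KO3, and WT1, WT2 and WT3. *Hnrnpa2b1*, which encodes an RNA-binding protein of the hnRNP family, was targeted in the KO cells by transfection of a Cas9 and puromycin-resistance plasmid with a single-guide RNA against the gene, puromycin selection and isolation of clones with cloning rings. WT cells were also described as isolated clones, and both genotypes were differentiated for 2 days by serum withdrawal with insulin, transferrin and selenium. The legend of a Western blot in the study names cells given a scrambled guide beside the KO. Whether the WT libraries came from such cells is not stated. The methods name 3 independent clones of each genotype, but which clone gave which library is not stated in the sources used here. The p-values therefore measure the spread between these libraries alone.

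The libraries held 33605258 to 40558740 counted reads. Levels are given as CPM, the read count relative to the library total after TMM scaling (a trimmed mean of M-values), unless TPM is named. The RNA of the targeted gene was present in every library. *Hnrnpa2b1* was at 159, 195 and 249 CPM in the KO libraries and at 225, 229 and 252 CPM in the WT libraries, with a log2 fold change of −0.23 (SE 0.18, adjusted p = 0.381 from edgeR). The RNA level therefore does not check the KO label, and the libraries are grouped as labelled. The methods state that KO in the clones was checked at the protein level, by immunofluorescence and Western blotting. All 10 myogenic marker genes were tested, with a median log2 fold change of −0.59, and *Myog*, a transcription factor of differentiating myoblasts, lay between 1005 and 1709 CPM in the 6 libraries. Of these markers *Myod1* rose by a log2 fold change of 0.99 (SE 0.20, adjusted p = 0.0141), and *Myf5* (−1.50, SE 0.39, adjusted p = 0.0303) and *Myf6* (−3.58, SE 0.76, adjusted p = 0.0162), 2 further myogenic transcription factors, fell in KO. The 3 calls of 10 stand beside 22.7% of all genes tested, and limma on TPM called 4 of 9 of these markers, beside 20.2%. Each of the 3 calls was lost without WT1 and without WT3, and that of *Myf5* also without KO3 or WT2. With 1 library left out the log2 fold change of *Myf6* lay between −5.08 and −3.13. That of *Myf5* lay between −2.105 and −1.24. Summed over the 10 markers, the KO libraries 1 to 3 held 17525, 7614 and 6680 CPM, and the WT libraries 12197 to 15433 CPM. In bulk RNA, fewer cells that express a gene and less RNA per cell cannot be told apart.

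Carbonic anhydrases of the alpha class hold a zinc ion at the bottom of the active site on 3 histidines, and the zinc-bound hydroxide attacks carbon dioxide. The isoenzymes differ in where they act. *Car2*, *Car3* and *Car13* encode cytosolic enzymes, *Car5b* a mitochondrial one, and *Car9*, *Car12* and *Car14* proteins of the plasma membrane with the active site outside the cell. *Car8* encodes a carbonic anhydrase-related protein without the enzyme activity, which is known to bind the inositol trisphosphate (IP3) receptor *Itpr1*. In muscle, *Car3* is best known as an abundant protein of slow fibres with a low rate of carbon dioxide hydration, and it is also abundant in fat.

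The coding stretches around the zinc site show what these enzymes share. They are read from the reference genome (GRCm38) and its GENCODE transcripts, in the sense of the gene from 5′ to 3′, with the codons at the positions of the 3 zinc ligands in capitals. Stretches are given for the 4 members whose levels the results turn on. In *Car2* and *Car3* the marked codons are numbers 94, 96 and 119 of 260, counted from the start codon.
Car3: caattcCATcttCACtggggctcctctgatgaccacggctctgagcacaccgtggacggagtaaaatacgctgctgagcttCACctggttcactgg
Car2: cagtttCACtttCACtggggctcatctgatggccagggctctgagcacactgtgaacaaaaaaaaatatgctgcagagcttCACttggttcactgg
Car13: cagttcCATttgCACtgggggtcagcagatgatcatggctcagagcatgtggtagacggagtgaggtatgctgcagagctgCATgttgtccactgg
Car12: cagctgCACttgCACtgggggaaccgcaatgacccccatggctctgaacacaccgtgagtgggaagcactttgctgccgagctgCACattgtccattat
Each stretch spans 2 exons. The *Car3* stretch runs over chr3:14866844-14868366 on the plus strand, the *Car2* stretch over chr3:14895063-14895552 (plus), the *Car13* stretch over chr3:14650700-14654901 (plus) and the *Car12* stretch over chr9:66747641-66750947 (plus). The 3 marked codons encode histidine in each of these 4 members. Along the coding sequence *Car3* was 64.2% identical to *Car2* and 63.0% to *Car13*, and the longest exact run that any pair of the 8 transcripts shared was 30 bases, between *Car2* and *Car13*, against reads of 150 bases.

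*Car3* and *Car12* stood higher in KO than in WT, *Car2* stood lower, and the other 5 members were short of the threshold used for all genes. At that threshold (edgeR, adjusted p under 0.05) 3 of the 8 members were called, 2 higher and 1 lower, beside 22.7% of the 14828 genes tested (12.1% higher and 10.6% lower). The CPM of the genotypes did not overlap for 4 of the 8 members, *Car3* and *Car12* with all KO libraries above WT and *Car2* and *Car14* with all KO libraries below, beside 44.3% of the tested genes (22.7% above and 21.6% below). Since the members were chosen with this comparison known, nothing is read from either count. The median log2 fold change of the 8 members was 0.22, and that of all tested genes was 0.03.

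**Figure D1:**
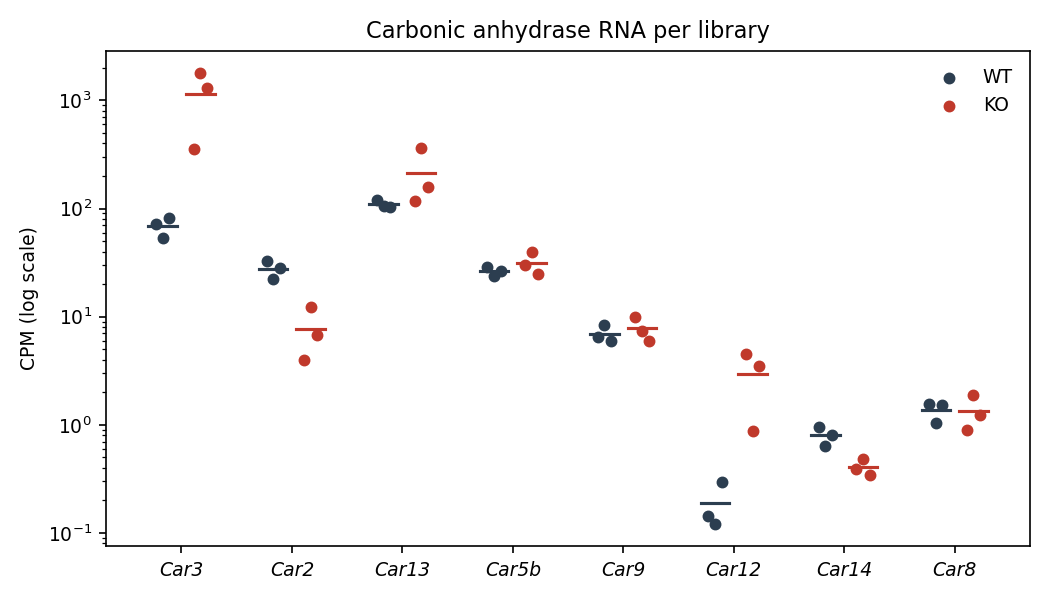
TMM-scaled CPM of the 8 carbonic anhydrase genes in each library, on a log axis, with KO and WT libraries as points and the mean of each genotype as a bar. The KO points of *Car3* lie at 352 to 1783 CPM, above the WT points at 53.4 to 82.1 CPM, and those of *Car2* lie below WT.

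*Car3* (ENSMUSG00000027559, chr3:14863512-14872523, plus strand) was at 352, 1783 and 1306 CPM in KO1 to KO3 and at 72.3, 53.4 and 82.1 CPM in WT1 to WT3. Every KO library lay above every WT library, and the lowest KO library was 4.29 times the highest WT library. These levels rest on 12596, 77846 and 53504 counted reads in KO and on 2501, 1752 and 3046 in WT. The KO libraries were also far apart from each other, since KO2 was 5.06 times KO1, whereas the highest WT library was 1.54 times the lowest. The mean was 1147 ± 728 CPM in KO and 69.3 ± 14.6 CPM in WT (SD, n = 3 each), a ratio of 16.6 and a log2 fold change of 4.05 (SE 0.57). Among the 14828 tested genes it was number 93 from the largest rise. Without each library in turn its log2 fold change lay between 3.59 and 4.47.

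*Car2* (ENSMUSG00000027562, chr3:14886273-14900770, plus strand), the fast and broadly expressed cytosolic enzyme, went the other way. It was at 4.001, 12.4 and 6.79 CPM in KO1 to KO3 and at 33.1, 22.3 and 28.2 CPM in WT1 to WT3. All KO libraries lay below all WT libraries, with the lowest WT library at 1.80 times the highest KO library, KO2. The mean was 7.73 ± 4.28 CPM in KO and 27.9 ± 5.37 CPM in WT (SD, n = 3 each), 3.60 times higher in WT, with a log2 fold change of −1.85 (SE 0.38). KO2 held the highest level of both *Car2* and *Car3* among the KO libraries, and KO1 the lowest of both. *Car2* was short of the threshold without KO3 (log2 fold change −1.75), WT1 (−1.71) or WT3 (−1.87).

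*Car13* (ENSMUSG00000027555, chr3:14641727-14663002, plus strand), another cytosolic enzyme, was at 118, 360.0 and 159 CPM in KO1 to KO3 and at 119.6, 104 and 103 CPM in WT1 to WT3. KO1 lay within the WT range, whereas KO2 and KO3 lay above it. The mean was 212 ± 129 CPM in KO and 109 ± 9.06 CPM in WT (SD, n = 3 each), with a log2 fold change of 0.96 (SE 0.37), short of the threshold. Without KO1 the log2 fold change was 1.25, past the threshold, and without KO2 it was 0.35.

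*Car13*, *Car1*, *Car3* and *Car2* lie in that order within 259 kb of chromosome 3. *Car2* begins 13.75 kb beyond the end of *Car3*, with 0 annotated genes between them, and these neighbours had log2 fold changes of 4.05 and −1.85. *Car1* (chr3:14766216-14808368, minus strand), the red cell enzyme, was at 0.280, 0.687 and 0.561 CPM in KO and at 0.839, 0.853 and 0.782 CPM in WT. Its KO libraries lay below WT, but the log2 fold change of −0.68 (SE 0.41, adjusted p = 0.252) did not pass. Within 1 Mb of the cluster 34 genes were listed and 8 tested, of which 4 were not carbonic anhydrases. *Lrrcc1* (0.30, SE 0.16, adjusted p = 0.199), *E2f5* (0.01, SE 0.18, adjusted p = 0.980) and 1810022K09Rik (0.18, SE 0.12, adjusted p = 0.316) did not pass, and the predicted gene Gm33819 fell (−2.05, SE 0.58, adjusted p = 0.0389), at 1 to 5 counts per KO library and 11 to 14 per WT library. The call of Gm33819 was lost without KO2, KO3 or any of the WT libraries, in DESeq2, with no filter on low counts and with the replicate block, and that of *Lrrcc1* was gained without KO1. The direction of *E2f5* differed between settings, with −0.02 in DESeq2.

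**Figure D2:**
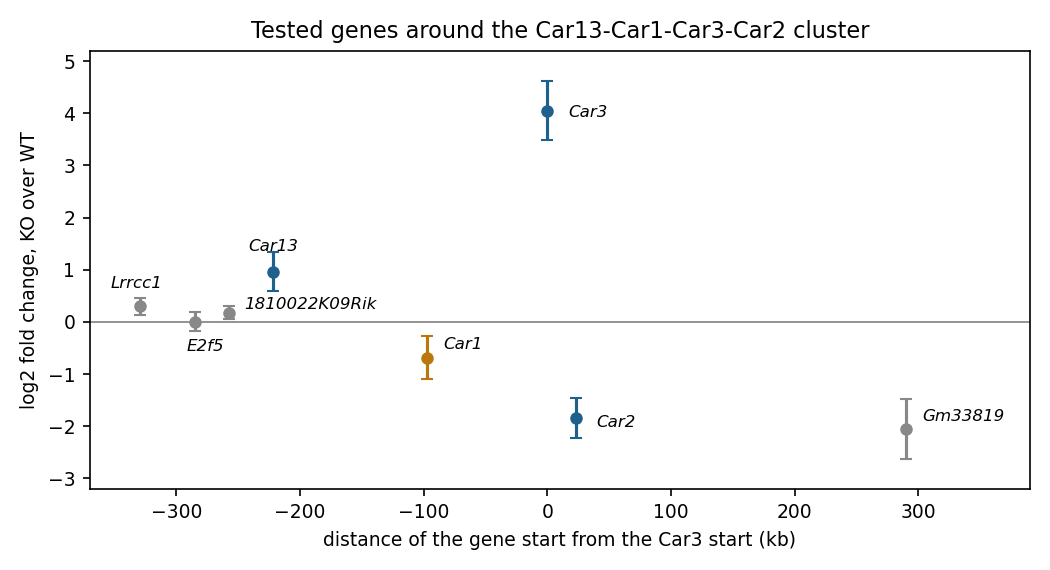
Log2 fold change of KO over WT (edgeR, points, with SE as bars) of the 8 tested genes within 1 Mb of the chromosome 3 cluster, against the distance in kb of each gene's lower coordinate from that of *Car3*. *Car3* stands at 4.05 and its neighbour *Car2* at −1.85, while *Lrrcc1*, *E2f5* and 1810022K09Rik lie between 0.01 and 0.30.

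TPM, which corrects for transcript length, lets the levels of the members be set in order. Non-members are left out of the orders, shares and sums. Among them *Car6* was at 11.1, 25.0 and 8.31 TPM in WT1 to WT3 and at 6.98, 0.380 and 2.28 TPM in KO1 to KO3. In WT, *Car13* (35.6, 31.9 and 28.4 TPM) and *Car3* (29.8, 22.6 and 30.9 TPM) were the highest and overlapped. They were followed by *Car2* (13.2, 9.04 and 10.3 TPM), *Car5b* (5.71, 5.02 and 4.83 TPM) and *Car9* (2.35, 3.24 and 2.10 TPM), each apart from its neighbours in that order. *Car8* (0.173 to 0.269 TPM) and *Car14* (0.116 to 0.212 TPM) overlapped, and *Car12* was lowest at 0.0240 to 0.0512 TPM.

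In KO the order began with *Car3* at 129.6, 694 and 605 TPM, above *Car13* at 31.4, 100.4 and 52.9 TPM. *Car5b* came next at 5.49, 7.44 and 5.56 TPM. *Car9* at 3.58, 2.82 and 2.72 TPM and *Car2* at 1.36, 4.57 and 2.89 TPM overlapped, as did *Car12* (0.971, 0.148 and 0.729 TPM) with *Car8* (0.136 to 0.332 TPM) and *Car8* with *Car14* (0.0812 to 0.152 TPM). Among the members *Car2* was number 3 in every WT library and number 4 or 5 in the KO libraries. These orders are of per-length levels, not of differences between genotypes.

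The makeup of the RNA of the 8 members differed accordingly. *Car3* held 75.1%, 85.7% and 90.3% of the TPM summed over the 8 members in the KO libraries, against 34.2%, 31.3% and 40.2% in the WT libraries. The sum was 173, 810 and 671 TPM in KO and 87.2, 72.0 and 76.9 TPM in WT, and without *Car3* it was 43.0, 116 and 65.2 TPM in KO and 57.4, 49.5 and 46.0 TPM in WT. The summed levels of the other 7 members overlapped between the genotypes. The TPM of *Car3* was 95.2, 152 and 209 times that of *Car2* in the KO libraries and 2.25, 2.50 and 3.01 times in the WT libraries. Relative to *Car13* it was 4.13, 6.91 and 11.4 times in KO and 0.837, 0.709 and 1.09 times in WT. The membrane members summed to 3.12 to 4.63 TPM in KO and 2.30 to 3.38 TPM in WT, far below the cytosolic members at 162 to 799 TPM in KO and 63.5 to 78.6 TPM in WT.

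**Figure D3:**
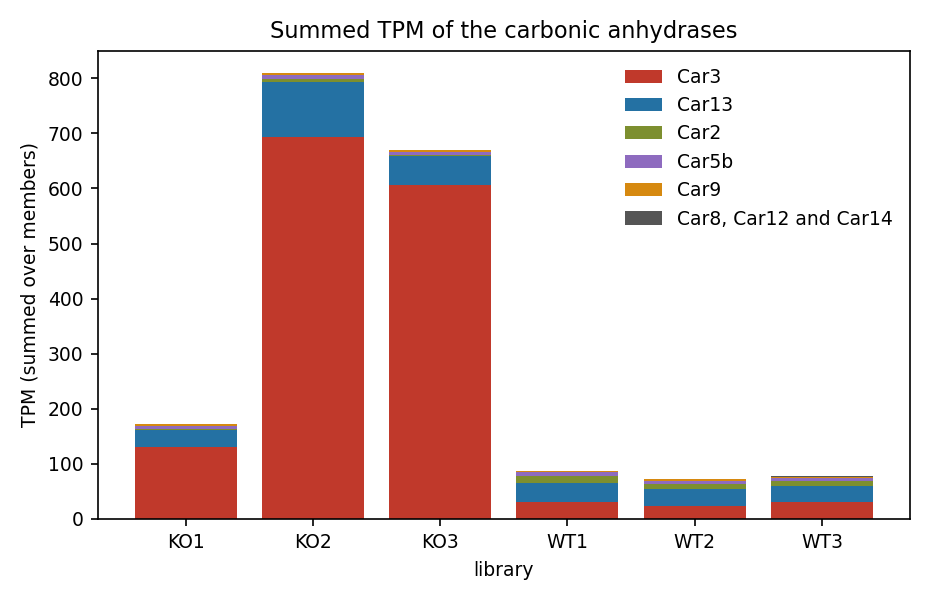
TPM of the carbonic anhydrase members stacked in each library, in KO1 to KO3 and WT1 to WT3. *Car3* makes up 75.1% to 90.3% of the stack in KO and 31.3% to 40.2% in WT, and the stack is tallest in KO2 at 810 TPM.

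On the TPM scale 5 of the 8 members passed a filter of at least 1 TPM in 3 libraries, and *Car3* (log2 difference 3.74, SE 0.54, on the log2(TPM + 1) scale) and *Car2* (−1.66, SE 0.29) were past limma's threshold, beside 20.2% of 11691 genes. As with the counts, these values describe the members and nothing is read from them. *Car12* did not pass that filter. Without WT1, 1 of the 5 was called.

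*Car12* (ENSMUSG00000032373, chr9:66713686-66766845, plus strand) encodes a membrane enzyme of epithelia and of many tumours that is induced with low oxygen. It was at 4.50, 0.870 and 3.47 CPM in KO1 to KO3 and at 0.145, 0.122 and 0.296 CPM in WT1 to WT3. These are 161, 38 and 142 counts in KO and 5, 4 and 11 counts in WT, so that every KO library lay above every WT library at a low level. The mean was 2.95 ± 1.87 CPM in KO and 0.188 ± 0.0949 CPM in WT (SD, n = 3 each), with a log2 fold change of 3.93 (SE 0.70). KO2, the library highest in *Car3*, was the lowest of the KO libraries in *Car12*. Without WT1 its log2 fold change was 3.77, short of the threshold.

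*Car9* (ENSMUSG00000028463, chr4:43506966-43513729, plus strand), a membrane enzyme and a well-known target of hypoxia-inducible factor, was at 10.02, 7.44 and 5.98 CPM in KO and at 6.45, 8.38 and 5.90 CPM in WT. The genotypes overlapped, with a log2 fold change of 0.18 (SE 0.25) that turned to −0.05 without KO1. An antisense gene, Gm12454, overlaps *Car9* by 1782 bases and held 7, 7 and 8 counts in KO against 73, 78 and 62 in WT (log2 fold change −3.46, adjusted p = 0.00166 from edgeR), a gene singled out after its values were seen. Whether the counting used strand is not given in the sources used here, so reads of *Car9* and Gm12454 may not have been kept apart.

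*Car14* (ENSMUSG00000038526, chr3:95897768-95904691, minus strand), a further membrane enzyme, was at 0.392, 0.481 and 0.342 CPM in KO and at 0.954, 0.640 and 0.809 CPM in WT. In CPM all KO libraries lay below all WT libraries. The counts were 14, 21 and 14 in KO and 33, 21 and 30 in WT, equal in KO2 and WT2 before scaling. The log2 fold change of −0.98 (SE 0.36) was short of the threshold. In TPM the genotypes overlapped, at 0.0812, 0.152 and 0.128 TPM in KO and 0.212, 0.116 and 0.1495 TPM in WT, and the WT mean was 1.32 times the KO mean. Its 3′ end overlaps *Aph1a* on the other strand by 521 bases, and *Aph1a* lay between 28.5 and 35.0 CPM in all libraries with a log2 fold change of 0.00.

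*Car5b* (ENSMUSG00000031373, chrX:163976822-164027997, minus strand), the mitochondrial member, was at 30.1, 39.3 and 24.7 CPM in KO and at 28.5, 24.0 and 26.3 CPM in WT. The ranges overlapped and the log2 fold change was 0.26 (SE 0.19).

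*Car8* (ENSMUSG00000041261, chr4:8143362-8239041, minus strand), the carbonic anhydrase-related member, was at 0.895, 1.88 and 1.25 CPM in KO and at 1.56, 1.04 and 1.51 CPM in WT. The genotypes overlapped, and the log2 fold change of −0.03 (SE 0.37) changed sign with the library left out. Its binding partner *Itpr1* did not pass (−0.18, SE 0.21, adjusted p = 0.547), nor did *Itpr2* (0.25, SE 0.25, adjusted p = 0.493). *Itpr3*, the third IP3 receptor gene, rose by a log2 fold change of 0.59 (SE 0.12, adjusted p = 0.0137), from 30.6 to 31.2 CPM in WT to 42.8 to 50.7 CPM in KO. The call of *Itpr3* was lost without WT1 or WT3 and in limma on TPM.

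Of the 8 carbonic anhydrase genes that are not members, 4 passed the filter and 0 were called by edgeR, beside 22.7% of all genes tested. At an unadjusted p under 0.05 there was 1 of the 4. No share of all genes is given at that unadjusted p, here or below, and nothing is read from such counts. DESeq2 called 0 of 4, beside 4149 of the 17329 genes it tested, and limma on TPM called 1 of 2, beside 20.2%. *Car6*, the secreted enzyme of saliva (chr4:150187015-150201332, minus strand), was at 16.5, 0.870 and 4.39 CPM in KO1 to KO3 and at 23.6, 51.1 and 18.8 CPM in WT1 to WT3. Every KO library lay below every WT library, KO1 was 18.9 times KO2, and the log2 fold change was −2.11 (SE 0.87, adjusted p = 0.115). Without KO1 it was −3.58 and passed. *Car7* (−0.29, SE 0.56, adjusted p = 0.727) and *Car11* (−0.09, SE 0.23, adjusted p = 0.798), the latter another carbonic anhydrase-related protein, overlapped between the genotypes. *Car4*, *Car5a*, *Car10* and *Car15* held at most 7 counts in any library and were not tested. *Ptprg*, a receptor phosphatase with a carbonic anhydrase-like domain, had a log2 fold change of 0.48 (SE 0.20, adjusted p = 0.119), and *Ptprz1*, the other such gene, held at most 2 counts in a library.

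**Figure D4:**
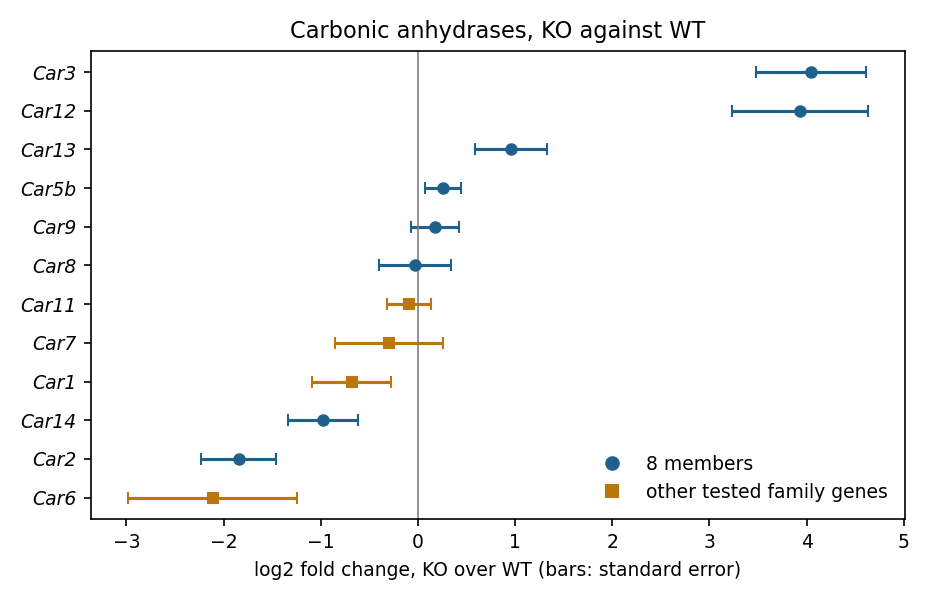
Log2 fold change of KO over WT (edgeR, points, with SE as bars) of the 8 members and the 4 other carbonic anhydrase genes that passed the filter. *Car3* at 4.05 and *Car12* at 3.93 lie far to the right, *Car2* at −1.85 and *Car6* at −2.11 to the left, and the other 8 genes lie between −0.98 and 0.96.

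The partners of carbonic anhydrases were read from lists of bicarbonate transporters, proton and lactate transporters and bicarbonate-using enzymes, against the 22.7% of all tested genes that were called. Of 19 genes of the Slc4 and Slc26 families of bicarbonate and other anion transporters 11 were tested, 2 rose and 2 fell, with a median log2 fold change of −0.33. *Slc4a2*, a chloride and bicarbonate exchanger, rose from 20.2, 33.6 and 27.0 CPM in WT to 66.3, 71.1 and 72.3 CPM in KO (log2 fold change 1.38, SE 0.19, adjusted p = 0.00393). *Slc26a2*, listed with its family but best known as a sulfate transporter, rose (0.73, SE 0.16, adjusted p = 0.0189), and the anion exchanger *Slc26a6* fell (−2.12, SE 0.47, adjusted p = 0.0181). *Slc26a7* fell as well (adjusted p = 0.00393), at 4 counts over the KO libraries against 54 over the WT libraries, a WT level 15.6 times that of KO with a 95% counting interval of 5.74 to 59.1. Without WT1 or without WT3, 2 of the transporters were called in place of 4. Over all genes the calls were then 933 of 15521 and 1288 of 15272. The call of *Slc26a2* was lost when any 1 WT library was left out and in limma on TPM, and that of *Slc26a6* without KO3, WT1 or WT3. Without KO1 the log2 fold change of *Slc26a6* was −2.84.

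Of 14 proton and lactate transporter genes 11 were tested, with a median log2 fold change of −0.01. *Emb*, a partner protein of the lactate transporters, rose (1.67, SE 0.38, adjusted p = 0.0195), as did the sodium-proton exchanger *Slc9a8* (0.69, SE 0.18, adjusted p = 0.0294). *Slc9a5*, another such exchanger, fell (−0.89, SE 0.17, adjusted p = 0.0106), and the other 8 did not pass. The number called was 6 without KO1, 1 without KO3 and 0 without WT1. Over all genes it was then 4712 of 15409, 2088 of 14989 and 933 of 15521. The call of *Slc9a8* was lost without KO3, WT1 or WT3, with the replicate block and in limma on TPM, that of *Emb* without KO3 or WT1 and that of *Slc9a5* without WT1. Of 9 enzymes that use bicarbonate, 8 were tested and 0 were called by edgeR, with a median of −0.12. At an unadjusted p under 0.05 there were 2 of the 8, and DESeq2 called 1 of 8, limma on TPM 1 of 7, edgeR 1 without KO1 and 2 without KO2. Over all genes the calls were 4149 of 17329 in DESeq2 and 20.2% in limma on TPM. In edgeR they were 4712 of 15409 without KO1 and 2695 of 15202 without KO2.

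*Car9* and *Car12* are known as genes that respond to low oxygen, and a list of 20 other hypoxia response genes was read beside them. All 20 were tested, 3 rose and 3 fell, beside 12.1% higher and 10.6% lower among all tested genes, and the median log2 fold change was 0.14. *Adm*, a vasodilator peptide, rose (1.56, SE 0.43, adjusted p = 0.0376), as did *Pfkfb4* (1.11, SE 0.19, adjusted p = 0.00768), a regulator of glycolysis. *Pfkfb3*, its paralog, fell (−1.65, SE 0.36, adjusted p = 0.0171), as did *P4ha2*, a collagen prolyl hydroxylase (−1.14, SE 0.27, adjusted p = 0.0240). The number called was 3 without KO3, 1 without WT1, 3 without WT2 and 2 without WT3. Over all genes it was then 2088 of 14989, 933 of 15521, 2100 of 15408 and 1288 of 15272. The call of *Adm* was lost when any 1 library other than KO2 was left out, that of *P4ha2* without WT1 or WT3 and that of *Pfkfb3* without WT1.

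*Car3* is known as a gene of slow fibres, and lists of slow and fast muscle genes were read beside it. Of 16 slow muscle genes 15 were tested, and 1 rose and 1 fell, with a median log2 fold change of −0.57. *Myl2*, the slow and cardiac regulatory light chain, rose (4.77, SE 1.09, adjusted p = 0.0204), at 82.7, 3.73 and 12.4 CPM in KO1 to KO3 and 0.914 to 1.40 CPM in WT. Its highest library was KO1, which was the lowest KO library in *Car3*, its call was lost when any 1 WT library was left out, and its log2 fold change lay between 2.74 and 5.30 with 1 library left out. *Myh7b*, a slow-type myosin gene, fell (−2.21, SE 0.26, adjusted p = 0.00257), and the other 13 did not pass. In limma on TPM 4 of 14 slow genes were called, 1 higher and 3 lower, beside 20.2% of all genes. *Myh7* (log2 difference −2.42, adjusted p = 0.0116 from limma) and *Tnni1* (−1.23, adjusted p = 0.0308) were among the lower ones. In edgeR they were at −2.12 (adjusted p = 0.0586) and −1.09 (adjusted p = 0.0961). Of 16 fast muscle genes, all tested, 4 fell and 0 rose, with a median of −0.81. All tested genes gave 10.6% lower and 12.1% higher. *Myl1*, a fast light chain, fell (−2.39, SE 0.61, adjusted p = 0.0297), as did *Myoz1* (−1.52, SE 0.40, adjusted p = 0.0308), which encodes a Z-disc protein, and both calls were lost without KO2, KO3, WT1 or WT3.

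The CPM summed over the slow list was 10194, 3877 and 3645 in KO1 to KO3 and 7277 to 9987 in WT, and that over the fast list was 10753, 4773 and 4188 in KO and 8423 to 12802 in WT. KO1, at 352 CPM of *Car3*, lay above the WT range of the slow list and within that of the fast list, and KO2 and KO3, at 1783 and 1306 CPM of *Car3*, lay below both ranges. Whether *Car3* moved with either list beyond these 3 libraries was not tested. The slow list gave 11 calls without KO1 and 1 without each of WT1, WT2 and WT3 in turn. The fast list gave 12 calls without KO1 and 0 without KO2, KO3, WT1 or WT3. Over all genes the calls were 4712 of 15409 without KO1, 2695 of 15202 without KO2 and 2088 of 14989 without KO3. They were 933 of 15521 without WT1, 2100 of 15408 without WT2 and 1288 of 15272 without WT3.

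**Figure D5:**
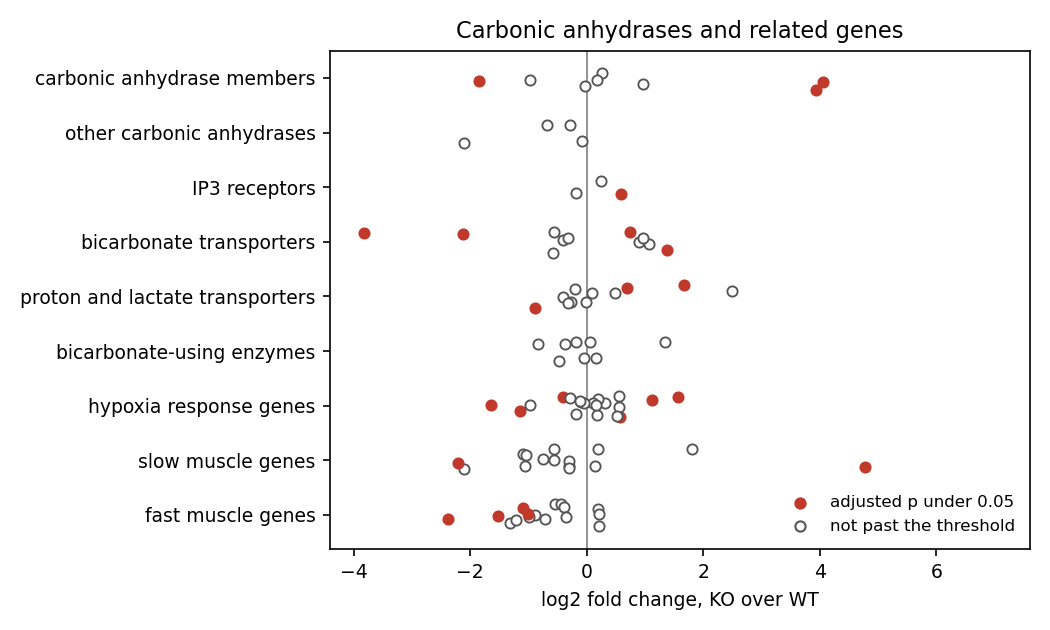
Log2 fold change of KO over WT (edgeR) of each tested gene in the carbonic anhydrase members and 8 related lists, 1 row per list, with filled points for genes past an adjusted p of 0.05. The members range from −1.85 to 4.05, and the slow and fast muscle lists have medians of −0.57 and −0.81.

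Markers of fat cells, in which *Car3* is also abundant, and of bone and cartilage cells were read in the same libraries. Of 10 adipocyte markers 3 were tested, with a median log2 fold change of 0.03. *Adipoq*, *Lep*, *Plin1*, *Cidec*, *Cfd*, *Fabp4* and *Retn* held at most 2 counts in any library, and *Lep* was at 0 in all. *Cebpa*, a transcription factor that adipocytes share with other cells, rose (1.24, SE 0.33, adjusted p = 0.0323), a call lost when any 1 library other than KO1 was left out, with the replicate block and in limma on TPM. The other tested markers, *Pparg* (−0.17, SE 0.24, adjusted p = 0.622 from edgeR) and *Lpl* (0.03, SE 0.73, adjusted p = 0.983), did not pass. The CPM summed over the list was 19.1 to 28.7 in KO and 17.0 to 22.2 in WT. Of 10 bone and cartilage markers 5 were tested, with a median log2 fold change of 0.90, and 4 of the 5 had an unadjusted p under 0.05. The share of all genes under that unadjusted p is not given, and nothing is read from the count. DESeq2 called 4 of 6, beside 4149 of the 17329 genes it tested. In edgeR 2 of 5 were called, beside 22.7% of all genes tested, and in limma on TPM 1 of 4, beside 20.2%. *Alpl*, the tissue-nonspecific alkaline phosphatase, rose (4.78, SE 1.07, adjusted p = 0.0191) at 185, 24 and 36 counts in KO against 5, 1 and 2 in WT, and *Dmp1* fell (−2.11, SE 0.43, adjusted p = 0.0137). The call of *Alpl* was lost without any 1 WT library, and that of *Dmp1* without WT1 or WT3. With 1 library left out the log2 fold change of *Alpl* lay between 3.16 and 5.57. *Sp7*, *Ibsp*, *Acan* and *Col2a1* held at most 4 counts in any library, and the summed CPM was 29.8 to 52.3 in KO and 29.0 to 32.9 in WT. The part of such cells in the levels of the carbonic anhydrases was not tested.

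The genes whose levels over the 6 libraries were most like those of *Car3* were found by the root mean square difference of log2 CPM, each gene centred on its WT mean. Relative to that mean *Car3* was at 2.37, 4.71 and 4.26 in KO1 to KO3 and at 0.09, −0.35 and 0.27 in WT1 to WT3. The closest named genes were *Fam84a* (difference 0.303), *Cxcl12* (0.304), *Mt2* (0.311), *Sdc3* (0.356) and *Bpifb1* (0.368). *Cxcl12*, a chemokine, was at 54.2, 151 and 111 CPM in KO and at 8.59, 5.21 and 9.30 CPM in WT, and *Mt2*, a metallothionein, was at 25.1, 137 and 58.5 CPM in KO and at 5.15, 3.54 and 6.87 CPM in WT. *Fam84a* and *Bpifb1* were low, at most 4.03 CPM in any library. Both the order of the libraries and the size of the difference between KO and WT were used to choose these genes, so neither is a separate result.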

How the data were processed

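RNA was measured in 3 KO and 3 WT libraries, and a library's genotype was taken from the GEO labels. The authors aligned reads with STAR and deposited raw counts per gene, with no normalization, and StringTie TPM per library. The 0 other count columns were left unused, and TPM values that carried the same gene identifier were summed. The methods name GRCm39 and the labels mm9, but 83.1% of 45153 shared genes had the coordinates of GENCODE on GRCm38, so positions are on GRCm38. For these files the versions of the tools and the use of strand are not given in the sources used here.

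The members, the gene lists, the tests and the alternatives were chosen with earlier results of these data known. Counts were filtered with filterByExpr, TMM-scaled (factors 0.949 to 1.08) and fitted by genotype with edgeR's two-sided quasi-likelihood test (edgeR 4.0.16, R 4.3.3), with Benjamini-Hochberg adjustment over 14828 of 46078 genes and a threshold of 0.05. TPM of at least 1 in 3 libraries was tested as log2(TPM + 1) with limma 3.58.1. DESeq2 1.42.0, upper-quartile scaling, no filter, a replicate block, a pseudocount of 0.1 and each library left out were alternatives. The named genes were the members, the other carbonic anhydrases, *Ptprg*, *Ptprz1*, the IP3 receptors, up to 2 rises and 2 falls of every other list, the tested genes within 1 Mb of the chromosome 3 cluster and the 5 named genes closest to *Car3* in profile. *Pparg*, *Lpl*, *Myh7* and *Tnni1* were also named, after their values were seen. Adipocyte, bone and cartilage, and myogenic markers checked the cell type. Libraries of 1 genotype differed by more than counting noise (chi-square per degree of freedom 46.6 to 171), and no library repeated another. Intervals cover counting error only.

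In simulated libraries edgeR recovered 51% of genes changed by 1 on the log2 scale and 85.6% of those changed by 2, with 2 unchanged genes called among 14891. DESeq2 recovered 55% and 87% with 15 among 28568, and limma 12.3% and 80.5% with 11 among 12359. The simulated counts followed the average spread of genes at each level, not the spread of each gene. In edgeR 100 and 97 changed genes were tested, far fewer than the calls in the real libraries. The recovery therefore does not give the power or the error in these libraries. Splicing was not analysed here.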

Additional observations from a re-analysis of the deposited data

How the results depend on the processing

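With 1 library left out, the number of members called lay between 1 (without WT1) and 4 (without KO1), of members called on TPM between 1 and 3, of other carbonic anhydrases between 0 and 1, of bicarbonate transporters between 2 and 5, of proton and lactate transporters between 0 and 6, of bicarbonate-using enzymes between 0 and 2, of hypoxia genes between 1 and 6, of slow muscle genes between 1 and 11 and of fast muscle genes between 0 and 12. Over all genes it lay between 933 of 15521 (without WT1) and 4712 of 15409 (without KO1), and the cause was not tested. In limma with no filter on TPM the calls were 0 for the members, 0 for the members on TPM, 0 for bicarbonate transporters, 1 for proton and lactate transporters, 1 for hypoxia, 1 for slow and 0 for fast muscle genes. In limma with the filter and a pseudocount of 1 they were 1 for other carbonic anhydrases, 2 for bicarbonate transporters, 1 for bicarbonate-using enzymes and 4 for slow genes, and with the filter and 0.1 they were 2 for bicarbonate transporters, 1 for bicarbonate-using enzymes, 3 for hypoxia and 4 for slow genes. With no filter on low counts, edgeR called 1 other carbonic anhydrase (*Car6*), 2 bicarbonate-using enzymes, 9 slow and 8 fast genes, and DESeq2 called 1 bicarbonate-using enzyme. *Car13* was called in DESeq2 and with no filter.

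The sign of *Car8* turned with upper-quartile scaling (0.0060) and limma with no filter on TPM (0.0042), and its log2 fold change lay between −0.35 and 0.18 with 1 library left out. Under the same omissions *Car9* lay between −0.046 and 0.34, *Car7* between −0.88 and 0.061, *Car11* between −0.20 and 0.041, *Itpr1* between −0.33 and 0.0071 and *E2f5* between −0.13 and 0.091. *E2f5* was at −0.017 in DESeq2, −0.017 with no filter and −0.0041 with the replicate block.

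The deviations of same-numbered libraries from their genotype means had correlations of 0.122, −0.106 and 0.0133 over genes. Those of the other pairs of a KO and a WT library lay between −0.302 and 0.255. Whether the replicate numbers mark pairs cannot be told from these values, with 3 libraries a genotype. The replicate block gave 2520 calls over all genes in place of 3361 and 4 slow muscle genes in place of 2, and it left the members at 3 calls. DESeq2 called 4149 genes, edgeR with no filter 4538 and limma on log2(TPM + 1) 2366. Higher calls were 53.4% of the calls in edgeR and 41.8% in limma on log2(TPM + 1). *Car12*, *Car14* and *Car8* have few counts, which limits what these libraries can show for them, and with 3 libraries a genotype an exact permutation test could not reach a p below 0.1.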
